A study of Caenorhabditis elegans with 4 samples.

Results

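The comparison described here sets worms that lack the nucleoside transporter gene ent-2 against wild-type worms, by single-nucleus RNA sequencing of whole animals. The ent-2KO library came from the deletion allele ent-2(rax75) on chromosome X, made in N2 with CRISPR/Cas9 and crossed back to N2, so that it is 1 edited line. The ctrl library came from N2, the wild-type strain. Both were fed HT115 bacteria that carried the empty RNAi vector L4440, and both were collected on day 1 of adulthood, with nuclei stained with Hoechst and sorted before droplet capture. All deposited barcodes of these libraries were used, which were 12425 nuclei of ent-2KO and 11666 of ctrl, 24091 of the 52147 nuclei in the series. The other nuclei came from ent-1KO worms, which carry the deletion ent-1(rax74) and ate the same bacteria, and from ent-1KO;ent-2KD worms, the same ent-1 line fed bacteria that make ent-2 double-stranded RNA. Each condition had 1 library. No test between conditions was therefore possible, and every interval below is a 95% interval for counting error only, which leaves out differences between worm cultures, preparations and captures.

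Equilibrative nucleoside transporters (ENTs) carry nucleosides across membranes down their concentration gradient, and in C. elegans they belong to a small family named ent. Cells obtain purine and pyrimidine nucleotides either by building the rings from simple precursors or by taking up and salvaging nucleosides, and the dividing germline has a high demand for both kinds of nucleotide. In the adult hermaphrodite, oocytes mature beside the contractile gonadal sheath, pass through the spermatheca and are fertilised and shelled, and the embryos are then held in the uterus until laying. Yolk made in the intestine is taken up by the oocytes through the receptor RME-2.

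The ent-2KO library held 26390135 unique molecular identifiers (UMIs, each standing for 1 captured RNA molecule) and a median of 1709 UMIs per nucleus, against 21009254 UMIs and a median of 1414 in ctrl. Counts were summed over nuclei and given as CPM, a gene's UMIs scaled to the same fixed total in each library or class. CPM is not per length, so levels are not compared between genes. A ratio is the log2 of the ent-2KO over the ctrl CPM after 0.5 UMIs were added to each sum. In such sums fewer cells of a type and less RNA per cell cannot be told apart. Mitochondrial transcripts made up 0.298% of UMIs in ent-2KO and 0.374% in ctrl, and ribosomal protein transcripts 7.06% and 7.46%. The libraries shared 51 barcodes, 0.437% of those of ctrl. Nuclei were clustered and the clusters named from fixed markers, as X-like classes. Germline-like nuclei held 61.2% (60.4 to 62.1%) of ent-2KO nuclei and 63.2% (62.3 to 64.1%) of ctrl nuclei. All 44 germline markers had UMIs in that class, but also in intestine-like, muscle-like and neuron-like nuclei, so this does not set it apart.

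Summed over all nuclei, few genes differed by as much as 2-fold between ent-2KO and ctrl. Of 46926 features, 7094 passed a minimum of 50 UMIs over both libraries and 20 CPM in at least 1 of them. Among these, 58 genes (0.818%) were at least 2-fold higher in ent-2KO and 35 (0.493%) at least 2-fold lower, the median log2 ratio was 0.00, and 90% of the ratios lay between -0.29 and 0.32. For scale, 24 genes (0.336%) were 2-fold higher and 38 (0.533%) 2-fold lower in ent-1KO over the same ctrl library. Between the 2 mutants, 55 genes (0.767%) were higher and 54 (0.753%) lower in ent-2KO over ent-1KO. In ent-1KO;ent-2KD over ent-1KO, which shares no library with ent-2KO over ctrl, 1591 of 8119 genes (19.6%) were higher and 1240 (15.3%) lower. Germline-like nuclei made up 59.6% of ent-1KO but 25.4% of ent-1KO;ent-2KD. Ratios of this pair over all nuclei therefore also carry its unlike tissue shares. Within germline-like nuclei, 27 of 5864 genes (0.46%) were 2-fold higher in ent-2KO and 18 (0.307%) lower. In the same class, ent-1KO over ctrl had 0.169% of genes higher and 0.22% lower, ent-2KO over ent-1KO 0.663% and 0.51%, and ent-1KO;ent-2KD over ent-1KO 5.23% and 6.82%. To name genes that set ent-2KO apart from both worms fed the same bacteria, a gene had to be 2-fold beyond ctrl and also 2-fold beyond ent-1KO in the same direction. This left 35 higher and 13 lower genes over all nuclei, 27 and 11 in germline-like nuclei.

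**Figure D1:**
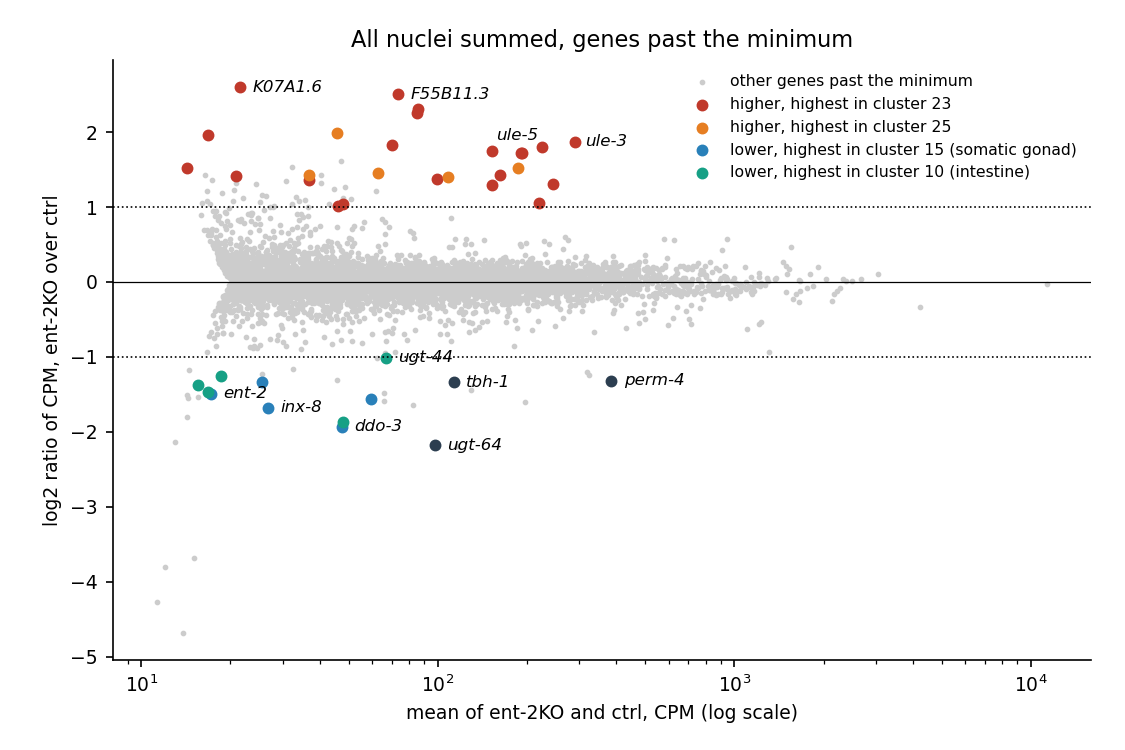
Log2 ratio of ent-2KO over ctrl (vertical axis) against the mean CPM of the 2 libraries (horizontal axis, log scale) for the 7094 genes past the minimum, all nuclei summed. Coloured points are genes 2-fold beyond both ctrl and ent-1KO, by the cluster in which their CPM was highest, dark points are 3 other genes named in the text, and dotted lines mark 2-fold. Most genes sit near 0, and the coloured genes form a higher and a lower group at moderate levels.

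ent-2 itself, on chromosome X from 15601067 to 15603686 (WBcel235 assembly), was among the lower genes. It had 9.02 CPM in ent-2KO (7.91 to 10.2), 24.2 CPM in ent-1KO, 18.1 CPM in ent-1KO;ent-2KD and 25.4 CPM in ctrl (23.3 to 27.7). The ent-2KO library was the lowest of the 4, with a log2 ratio to ctrl of -1.49 (-1.72 to -1.27). The 238 UMIs left in ent-2KO are 3′ tags and do not show how much of the gene was deleted, and whether some came from reads of a related ent gene was not tested. By class, ent-2 was highest in cluster 15, a somatic gonad-like cluster, with 240 CPM in ent-2KO and 454 CPM in ctrl, a log2 ratio of -0.91 (-1.41 to -0.45). In body wall muscle-like nuclei it had 59.1 CPM in ent-2KO and 85.7 CPM in ctrl, and in germline-like nuclei 2.95 and 13.4 CPM (log2 -2.17, -2.69 to -1.70). The interval of the ratio spans 0 in intestine-like nuclei, at 14.1 CPM in ent-2KO and 28.9 CPM in ctrl (-2.51 to 0.34) and in neuron-like nuclei (-2.49 to 0.42). In cluster 3, at 3.45 CPM in ent-2KO and 4.67 CPM in ctrl, it does so too (-2.13 to 1.22).

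Of the other ent genes, the 2 past the minimum were level over all nuclei. ent-1, the gene deleted in the other mutant, had 142 CPM in ent-2KO and 141 CPM in ctrl, a log2 ratio of 0.02 (-0.05 to 0.09), and 184 and 177 CPM in germline-like nuclei. Its level was 16.7 CPM in ent-1KO and 14.7 CPM in ent-1KO;ent-2KD. ent-6 had 107.7 CPM in ent-2KO and 100.8 CPM in ctrl. The remaining 4 genes stayed under the minimum. Of these, ent-3 had 10.99 CPM in ent-2KO and 4.81 CPM in ctrl (log2 1.19, 0.86 to 1.53). Its UMIs lay mostly in sperm-like nuclei, 168 in ent-2KO and 84 in ctrl, in which it had 642 and 468 CPM. ent-5 had 19.5 and 14.9 CPM, ent-4 had 2.12 and 2.67 CPM, and ent-7 had 6.14 and 6.19 CPM.

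**Figure D2:**
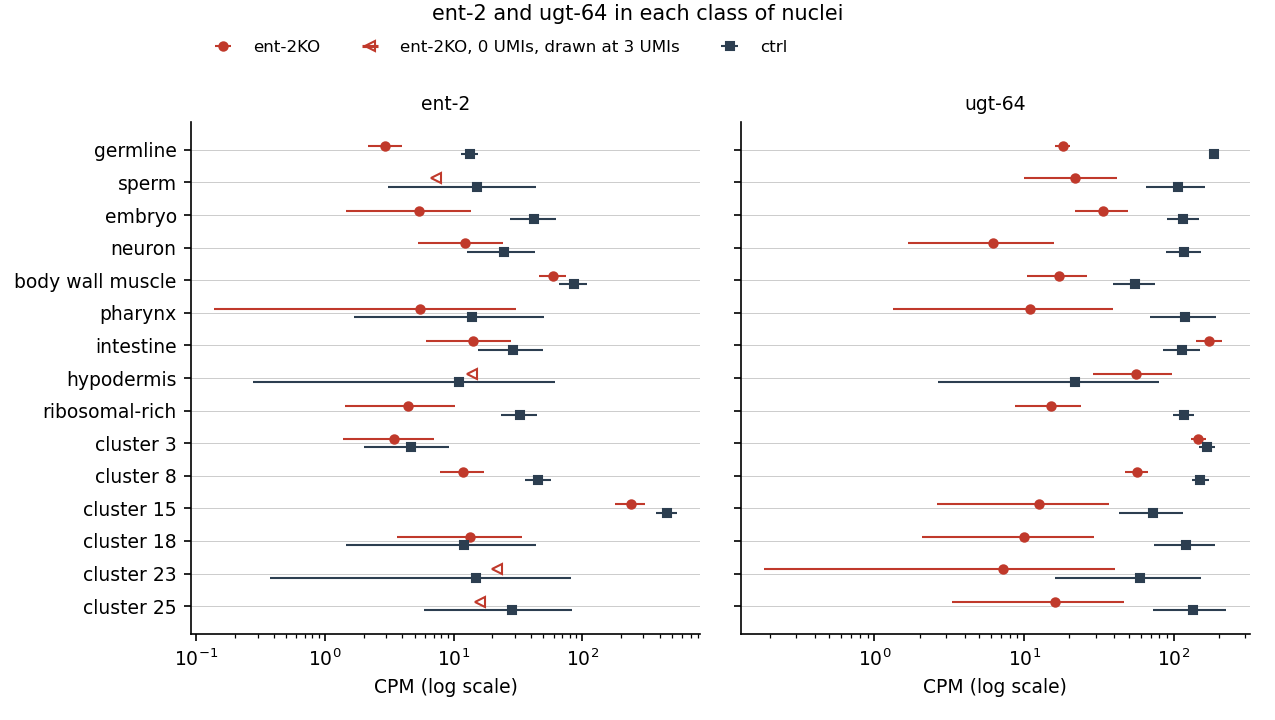
CPM (log scale) of ent-2 (left) and ugt-64 (right) in each class of nuclei, with exact Poisson 95% intervals, for ent-2KO (red circles) and ctrl (dark squares). Open triangles stand for 0 UMIs in ent-2KO, drawn at the CPM of 3 UMIs. ent-2 lies lower in ent-2KO in germline, embryo and cluster 15, and ugt-64 lies lower in ent-2KO in most classes but not in intestine or hypodermis.

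The genes that were higher in ent-2KO were dominated by a group of genes whose highest level in the series was in a small unnamed cluster. The 10 with the largest ratios were K07A1.6, F55B11.3, Y62H9A.4, Y62H9A.3, F53H4.2, R03G8.6, ule-3, Y57G11B.5, ule-5 and ZK813.3. The ule genes are named for expression in the uterine lumen. ule-3, on chromosome V from 10793798 to 10794924, had 456 CPM in ent-2KO, 88.2 CPM in ent-1KO, 98.3 CPM in ent-1KO;ent-2KD and 125 CPM in ctrl. ule-5, on chromosome X from 11883127 to 11884042, had 349.6, 67, 71 and 101 CPM in the same order. In both genes ent-2KO lay above the other 3 libraries, but the rule that named them had asked for this against ctrl and ent-1KO. The log2 ratios to ctrl were 1.87 (1.81 to 1.93) for ule-3 and 1.8 (1.73 to 1.87) for ule-5.

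K07A1.6 had the largest ratio, with 37 CPM in ent-2KO, 6.76 in ent-1KO, 7.69 in ent-1KO;ent-2KD and 6.09 in ctrl, a log2 ratio of 2.60 (2.34 to 2.88). F55B11.3 had 125, 14.6, 42.2 and 22 CPM in the same order, a ratio of 2.51 (2.37 to 2.65). For the other 6 the log2 ratios were 2.3 for Y62H9A.4, 2.25 for Y62H9A.3, 1.99 for F53H4.2, 1.97 for R03G8.6, 1.82 for Y57G11B.5 and 1.75 for ZK813.3. In ent-1KO;ent-2KD over ent-1KO, ent-2 was knocked down in the other background, and tissue shares differed. The ratios of these genes, which a low ent-1KO level had helped to choose, were small or mixed there. They were 0.16 for ule-3, 0.08 for ule-5, 0.19 for K07A1.6 and -0.42 for ZK813.3, with 1.53 for F55B11.3.

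Several of the 35 higher genes lie next to each other. Y62H9A.3, Y62H9A.4, Y62H9A.5 and ule-5 fill chromosome X from 11879110 to 11884042. ZK813.3, ZK813.2, ZK813.7 and ZK813.1 lie on X from 3441839 to 3446935. F55B11.2 and F55B11.3 are neighbours on chromosome IV, and D1054.10 and ule-3 on chromosome V. Genes of such clusters can resemble each other, so that reads may have been split between them.

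**Figure D3:**
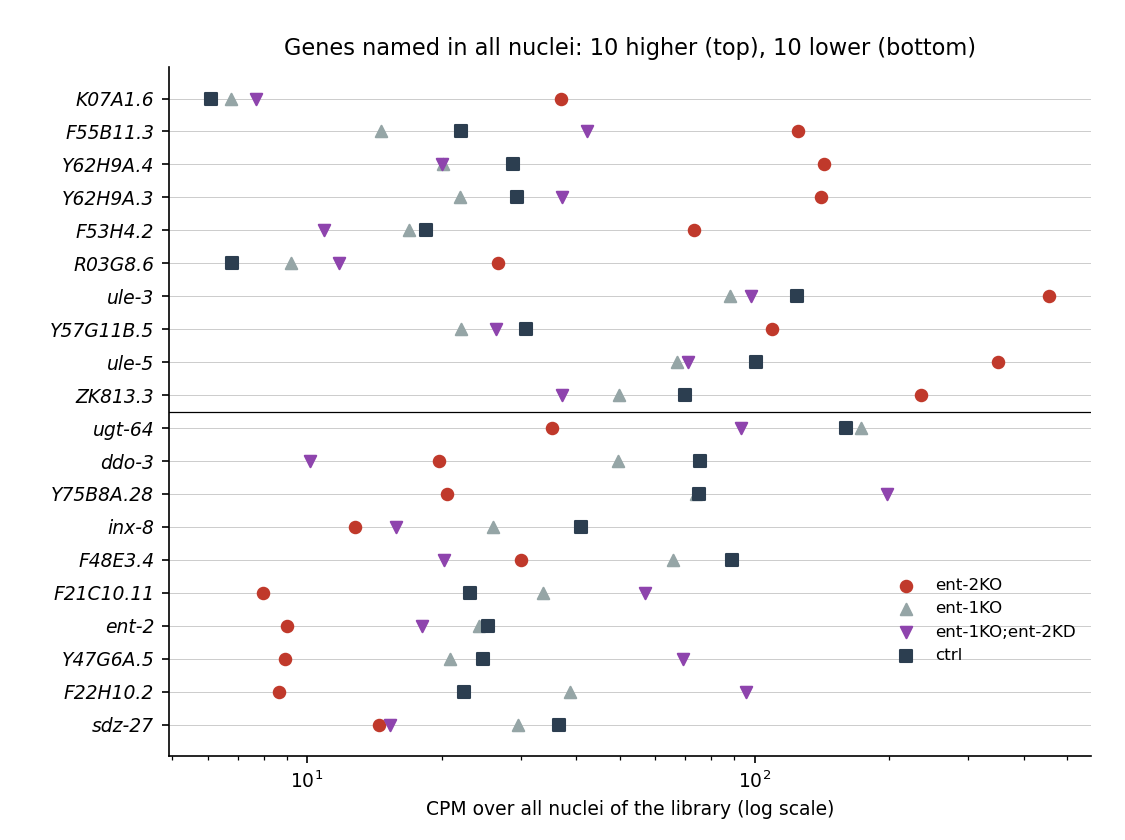
CPM over all nuclei (log scale) of the 10 higher and 10 lower genes in each of the 4 libraries: ent-2KO (red circles), ent-1KO (grey triangles), ent-1KO;ent-2KD (purple inverted triangles) and ctrl (dark squares). For the higher genes ent-2KO lies right of the other 3 libraries, and for ddo-3, F48E3.4 and others of the lower genes the ent-1KO;ent-2KD library lies near or below ent-2KO.

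Of the 35 higher genes, 21 had their highest CPM in cluster 23, an unnamed cluster of 68 nuclei in ent-2KO and 50 in ctrl led by clec-223, col-135, D1086.11 and F17E9.4. A single ent-2KO nucleus of that cluster carried 16084 of the 124499 UMIs (12.9%) of the 35 higher genes in its library, among 44044 UMIs in all and 1889 of ule-3. The next richest barcode of ent-2KO held 1621 UMIs of these genes, and the richest of ctrl held 664 of 33680 UMIs (1.97%). Within cluster 23 the 21 genes summed to 155000 CPM in ent-2KO and 81010 CPM in ctrl, but without that nucleus, an alternative chosen after its values were seen, to 79800 CPM in ent-2KO, a log2 ratio of -0.02 (-0.07 to 0.03). The difference within the cluster thus rested on 1 nucleus. ule-3 had 19470 CPM in ent-2KO and 8681 CPM in ctrl in the cluster, and 8579 CPM in ent-2KO without that nucleus (log2 -0.02, -0.17 to 0.14), and ule-5 had 13580 and 6618 CPM, and 6793 CPM in ent-2KO without it. The median log2 ratio of the 21 genes in the cluster was 1.04 with it and 0.04 without it, beside -0.06 and 0.00 over all genes past the minimum there. Outside cluster 23 the 21 genes were higher in ent-2KO, with a median ratio of 1.67, which their choice as higher over all nuclei favours. ule-3 had 355 CPM in ent-2KO and 97.2 CPM in ctrl over those nuclei, a ratio of 1.87. A further 5 of the 35 genes, F53H4.2, ZK813.1, W02D9.7, D1086.6 and F55B11.2, were highest in cluster 25, a cluster rich in ribosomal protein transcripts. They were lower in ent-2KO within that cluster (median log2 ratio -1.36) and higher outside it (2.08), the latter in part by the same choice. Since the leading genes of clusters 23 and 25 differ between the libraries, their numbers of nuclei are not compared.

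The 21 genes summed to more in ent-2KO in every class of nuclei shown other than cluster 25 and, once that 1 nucleus is left out, cluster 23. They had been chosen as higher over all nuclei, where cluster 23 held 21495 of their 97191 UMIs in ent-2KO. Higher sums of these genes outside it thus follow in part from that choice. In germline-like nuclei they summed to 2768 CPM in ent-2KO and 676 CPM in ctrl (log2 2.03), in neuron-like nuclei to 4619 and 1089 CPM (2.08), in muscle-like nuclei to 2104 and 572 CPM, in intestine-like nuclei to 3272 and 1146 CPM, in embryo-like nuclei to 2907 and 770 CPM, and in sperm-like nuclei to 2410 and 639 CPM. The share of nuclei with a UMI was alike across these classes. ule-3 was seen in 48.1% of germline-like, 51.3% of neuron-like, 48.4% of muscle-like, 45.7% of intestine-like and 47.6% of sperm-like nuclei of ent-2KO. The same shares in ctrl were 10.5, 10.4, 10.2, 13.9 and 11.9%. With each nucleus thinned to 500 UMIs, ule-3 was seen in 20.1% of germline-like nuclei (19.2 to 21%) in ent-2KO and 4.79% (4.31 to 5.30%) in ctrl, in 32.0 and 5.97% of neuron-like nuclei, and in 88.2 and 82.0% of cluster 23 nuclei. The unthinned shares were thus alike in germline, neuron, muscle and sperm nuclei, whose median depths in ent-2KO were 1756, 872, 2004 and 1911 UMIs. The thinned shares of germline-like and neuron-like nuclei were unlike. Whether the values outside cluster 23 come from expression in those cells or from free RNA was not tested. ule-5 had 76.1 UMIs per 100 UMIs of ule-3 in germline-like nuclei of ent-2KO, 83.1 in muscle-like nuclei and 69.7 in cluster 23 with all its nuclei, against 89.5, 91.1 and 76.2 in ctrl.

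Over all nuclei the differences were smaller without the 1 rich nucleus. The 21 genes then summed to 3160 CPM in ent-2KO, against 3683 CPM with it, and to 1214 CPM in ctrl. By gene, 55 were at least 2-fold higher and 35 lower, and the log2 ratio was 1.63 for ule-3, 1.59 for ule-5 and 2.4 for K07A1.6. The germline values do not include that nucleus.

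**Figure D4:**
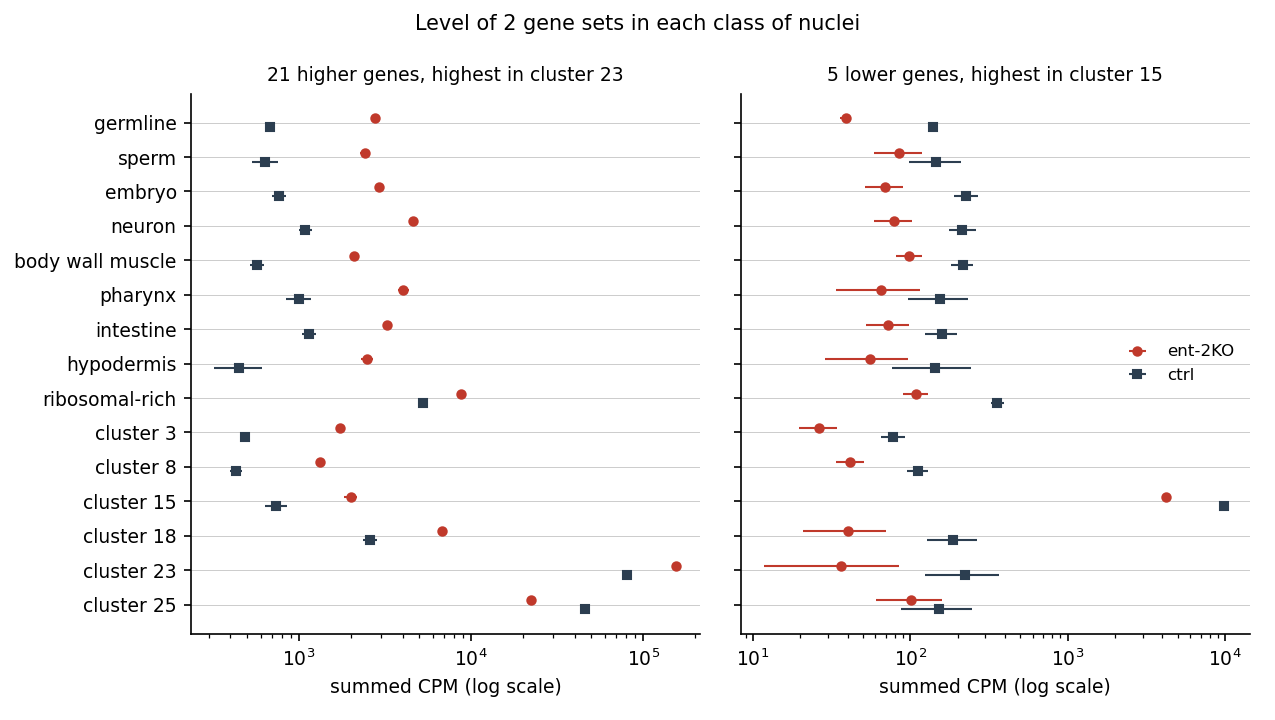
Summed CPM (log scale) with exact Poisson 95% intervals, by class of nuclei, of the 21 higher genes with their highest level in cluster 23 (left) and the 5 lower genes with their highest level in cluster 15 (right), in ent-2KO (red circles) and ctrl (dark squares). The 21 genes lie higher in ent-2KO in every class but cluster 25, where cluster 23 includes the nucleus without which its ent-2KO value is 79800 CPM, and the 5 genes lie lower in ent-2KO in every class.

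Of 13 genes lower in ent-2KO than in both ctrl and ent-1KO, 5 had their highest level in the intestine-like cluster, and 5, the deleted gene among them, in cluster 15, the somatic gonad-like cluster that carries lim-7, the LIM homeobox gene of the gonadal sheath: ddo-3, inx-8, F48E3.4, ent-2 and sdz-27. inx-8 encodes an innexin of the gap junctions between sheath and germ cells. It had 12.8 CPM in ent-2KO, 26 in ent-1KO, 15.8 in ent-1KO;ent-2KD and 40.8 in ctrl, a log2 ratio to ctrl of -1.68. ddo-3 had 19.7, 49.6, 10.2 and 75.4 CPM in the same order, a ratio of -1.94 (-2.08 to -1.79). The ratios were -1.57 for F48E3.4 and -1.34 for sdz-27. A high ent-1KO level helped to choose these genes, so their levels in ent-1KO;ent-2KD, 10.2 CPM for ddo-3, 15.8 for inx-8, 20.2 for F48E3.4 and 15.4 for sdz-27, are given as values and not as a second sign of the decrease.

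The 5 genes were also lower within cluster 15, but they had been chosen as lower over all nuclei. That cluster held 49.6% of the ddo-3 UMIs and 23.95% of the ent-2 UMIs of ent-2KO. Values within and outside cluster 15 are thus parts of those that chose the genes. Of the 4173 genes tested in all somatic gonad-like nuclei, 130 (3.12%) were at least 2-fold higher in ent-2KO and 88 (2.11%) lower. The 5 genes summed to 4219 CPM in ent-2KO and 9810 CPM in ctrl among its 81 and 99 nuclei, and their median log2 ratio there was -1.21 (range -1.44 to -0.91). ddo-3 had 1086 CPM in ent-2KO and 2949 CPM in ctrl in the cluster, and inx-8 674 and 1636 CPM. Not every gonad gene of the cluster was lower: lim-7 had 1710 CPM in ent-2KO and 1353 CPM in ctrl (log2 0.34, 0.13 to 0.55), and inx-9, the neighbour and partner innexin of inx-8, had 202 and 263 CPM with an interval that spans 0. Outside the cluster the 5 genes were lower in ent-2KO in each class, at 38.96 CPM in ent-2KO and 140 CPM in ctrl among germline-like nuclei and 78.4 and 215 CPM among neuron-like nuclei. In muscle-like nuclei they had 98.4 and 215 CPM, and in cluster 3 26.1 and 77.6 CPM. Whether these low levels in unrelated classes come from expression in those cells was likewise not tested.

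Further genes with a high level in cluster 15 had passed the rule as lower in germline-like nuclei. tbh-1, the tyramine beta-hydroxylase that makes octopamine, had 64.1 CPM in ent-2KO, 108.7 in ent-1KO, 40.5 in ent-1KO;ent-2KD and 162.5 in ctrl, and 4981 CPM in ent-2KO and 7809 CPM in ctrl within cluster 15 (log2 -0.65, -0.75 to -0.54). skpo-1, a peroxidase gene, had 32.7, 65.2, 25.3 and 99.0 CPM over all nuclei in the same order. perm-4 and perm-2 belong to the list of oocyte and eggshell genes. perm-4 had 220.4 CPM in ent-2KO, 432 in ent-1KO, 346 in ent-1KO;ent-2KD and 549 in ctrl, and perm-2 had 193, 374, 229 and 445 CPM. In cluster 15 perm-4 had 8093 CPM in ent-2KO and 18020 CPM in ctrl, a log2 ratio of -1.16, and perm-2 5491 and 13500 CPM, a ratio of -1.3. For all 4 genes ent-2KO lay below ent-1KO and ctrl, but the rule in germline-like nuclei had asked for that order, so it is not a separate result.

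ugt-64, a UDP-glucuronosyltransferase gene on chromosome V from 3503080 to 3506352, had the lowest ratio of the genes named in germline-like nuclei. Over all nuclei it had 35.3 CPM in ent-2KO, 173 in ent-1KO, 93.5 in ent-1KO;ent-2KD and 160 in ctrl, a log2 ratio to ctrl of -2.18 (-2.29 to -2.08). In germline-like nuclei it had 18.1 CPM in ent-2KO and 186 CPM in ctrl, a ratio of -3.36 (-3.54 to -3.18). It was seen in 248 of 7606 germline-like nuclei of ent-2KO and in 1734 of 7372 of ctrl, with at most 3 and 7 UMIs in a nucleus, so that no few nuclei set the value. After thinning to 500 UMIs the shares were 1.01% (0.80 to 1.26%) in ent-2KO and 8.34% (7.72 to 9.0%) in ctrl. It was also lower in neuron-like nuclei, at 6.15 CPM in ent-2KO and 116 CPM in ctrl, and in muscle-like nuclei, at 17.1 and 54.8 CPM. Among neurons, whose median depth was 872 UMIs in ent-2KO and 807 in ctrl, the unthinned shares were 0.786% in ent-2KO and 8.96% in ctrl, and the thinned shares 0% (0 to 0.722%) and 5.76% (3.83 to 8.27%). The ctrl share in the germline was thus little above that in neurons, and transcription in the germline and RNA spread over all classes cannot be told apart in ctrl. The level was highest in cluster 9, a germline-like cluster with 17.5 CPM in ent-2KO and 246 CPM in ctrl.

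ugt-64 was not lower everywhere. In intestine-like nuclei it had 173 CPM in ent-2KO and 113.5 CPM in ctrl, a ratio of 0.60 (0.10 to 1.124), from 98 and 51 UMIs. In cluster 3, an unnamed cluster led by pqn-72 and F16C3.2, it had 146 and 167 CPM (log2 -0.20, -0.44 to 0.04). In cluster 8 it had 56.5 and 150 CPM, a ratio of -1.41. Of the genes tested in cluster 3, 2.1% were at least 2-fold higher in ent-2KO and 0.89% lower, and in cluster 8, 0.3% and 0.928%. In the pair that shares no library with these, ugt-64 had 130 CPM in germline-like nuclei of ent-1KO;ent-2KD and 202 CPM in those of ent-1KO, a ratio of -0.64.

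Most genes that passed the rule in germline-like nuclei also appear above. The 5 highest were F55B11.3 (108 CPM in ent-2KO and 13.5 CPM in ctrl), K07A1.6 (32.9 and 4.13 CPM), Y62H9A.4 (121 and 17.7 CPM), Y62H9A.3 (108 and 17.3 CPM) and F53H4.2 (62.7 and 10.9 CPM). The 5 lowest were ugt-64, ddo-3 (8.13 and 40.8 CPM), skpo-1 (15.4 and 56.9 CPM), tbh-1 (18.7 and 65.7 CPM) and inx-8 (5.97 and 20.6 CPM). Of these 10 genes, ugt-64 was the one whose level was higher in a germline-like cluster than in any other cluster.

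In intestine-like nuclei, 123 of 4628 genes (2.66%) were at least 2-fold higher in ent-2KO and 113 (2.44%) lower, among 293 and 244 nuclei. A group of 5 genes lower over all nuclei had its highest level there, Y75B8A.28, Y47G6A.5, F22H10.2, K09D9.1 and ugt-44. Together they had 2368 CPM in ent-2KO and 6782 CPM in ctrl in these nuclei. These nuclei held part of the UMIs by which the genes were chosen. Y75B8A.28 had 726 CPM in ent-2KO and 2731 CPM in ctrl, Y47G6A.5 196 and 772 CPM, and ugt-44, a second UDP-glucuronosyltransferase gene, 936 and 2290 CPM. In intestine-like nuclei of ent-1KO;ent-2KD over ent-1KO the ratios were 0.12 for Y75B8A.28, 0.64 for Y47G6A.5 and 0.17 for ugt-44. Y75B8A.28 and ugt-44 are among the leading genes of the intestine-like cluster, so its share of nuclei, 2.36% in ent-2KO and 2.09% in ctrl, is given only as a denominator.

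The genes with the most extreme intestinal ratios were of unlike kinds. C09B8.4 had 8.82 CPM in ent-2KO, 39.9 in ent-1KO, 55.8 in ent-1KO;ent-2KD and 134 in ctrl, seen in 4 nuclei of ent-2KO and 45 of ctrl. T23F11.6 had 21.2 CPM in ent-2KO and 114 CPM in ctrl, and F08G2.5 had 19 UMIs in ent-2KO and 71 in ctrl. On the higher side, F14D2.19 had 209.8 CPM in ent-2KO and 0 UMIs in ctrl, at least 31.4-fold higher against a floor of 3 UMIs in ctrl, but 117 of its UMIs, 98.3% of those in ent-2KO, came from 1 nucleus. F13B6.3 had 53 UMIs in ent-2KO and 1 in ctrl, of which 52 lay in 1 nucleus. These values describe a nucleus each and not the tissue. Y62H9A.3, of the cluster 23 group, had 113 CPM in ent-2KO and 6.68 CPM in ctrl.

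Among intestinal enzyme and receptor families, 9 of 48 nuclear hormone receptor genes were 2-fold higher in ent-2KO and 3 lower, beside 2.66% and 2.44% of all genes, with a median log2 ratio of 0.39 against 0.06 over all 4628 genes. nhr-35 was highest, with 130.5 CPM in ent-2KO and 28.9 CPM in ctrl (log2 2.13, 1.31 to 3.15), and nhr-6 lowest, with 38.8 and 129 CPM (-1.72, -2.51 to -1.0). Of 16 UDP-glucuronosyltransferase genes, 4 were higher, led by ugt-29 with 247 CPM in ent-2KO and 95.7 CPM in ctrl, and ugt-44 was lower. The median of the family was 0.56 in intestine-like nuclei and 0.17 over all nuclei. acdh-2, an acyl-CoA dehydrogenase gene of fat breakdown, had 40.6 CPM in ent-2KO, 46.9 in ent-1KO, 74.5 in ent-1KO;ent-2KD and 171 in ctrl in intestine-like nuclei, where it was the only one of 27 fat metabolism genes past 2-fold. fat-6, a stearoyl-CoA desaturase gene, had 1301 CPM in ent-2KO and 772 CPM in ctrl, a log2 ratio of 0.75 (0.57 to 0.94). In ribosomal-rich nuclei, 3 of 29 fat metabolism genes were at least 2-fold lower and 0 higher, beside 0.902% and 0.854% of all genes. The list median there was -0.36, and fat-7 was lowest at -1.59.

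In muscle-like nuclei more genes were higher in ent-2KO than lower: 236 of 5936 (3.98%) against 69 (1.16%), among 457 nuclei of ent-2KO and 334 of ctrl. The median log2 ratio of all genes there was 0.16. Of the 236 higher genes, 194 (82.2%) had a higher CPM in germline-like than in muscle-like nuclei of ctrl by at least 2-fold, as did 46.6% of all genes tested in the class and 2 of the 69 lower genes. The median ratio of those germline-enriched genes was 0.44 and that of the others -0.08. Both the enrichment and the ratio are taken over the same muscle count of ctrl. A low count there raises both, so these differences are partly built in. All 44 germline markers had UMIs in muscle-like nuclei, with a summed level of 5691 CPM in ent-2KO and 3498 CPM in ctrl, while the 25 muscle markers summed to 66450 and 76850 CPM. The part of germline transcripts in the muscle counts was not tested further. Under median-ratio scaling, which sets the median ratio of the class to 0, 113 genes were higher and 129 lower.

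Genes lower in muscle-like nuclei included mfb-1, the worm counterpart of the muscle atrophy F-box gene atrogin-1, with 62.5 CPM in ent-2KO and 380 CPM in ctrl (log2 -2.60), seen in 38 and 96 nuclei. H10D18.5 had 10.3 and 89.95 CPM, and C09B8.4 had 9.42 and 64.7 CPM. Among the higher genes, Y62H9A.3 had 98.4 CPM in ent-2KO and 8.43 CPM in ctrl, and ZK813.3 143 and 18.3 CPM, as in other classes. F41E7.6 had 63.4 and 7.03 CPM, with 30 of its 74 UMIs in 1 nucleus of ent-2KO.

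In neuron-like nuclei, 77 of 5234 genes (1.47%) were 2-fold higher in ent-2KO and 80 (1.53%) lower, among 509 and 469 nuclei. ugt-64 had the lowest ratio of the class (-4.09), and other large differences were seen in neuropeptide genes. Of 27 FMRFamide-like peptide (flp) genes past the minimum, 7 were lower and 1 higher, beside the 1.53% and 1.47% of all genes, with a median log2 ratio of -0.44 against 0.08 over all genes of the class. flp-33 had 33.8 CPM in ent-2KO, 105 in ent-1KO, 87.5 in ent-1KO;ent-2KD and 345 in ctrl. flp-24 had 103 CPM in ent-2KO and 427 CPM in ctrl, flp-18 150.7 and 482 CPM, and flp-13 23.1 and 141 CPM. flp-11 was the higher one, with 1277 CPM in ent-2KO, 6281 in ent-1KO, 1376 in ent-1KO;ent-2KD and 443 in ctrl. Of 42 neuropeptide-like protein (nlp) genes, 6 were higher and 7 lower.

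These peptide genes are transcribed in few neurons, and few nuclei held their UMIs. The 22 UMIs of flp-33 in ent-2KO lay in 4 nuclei and the 169 UMIs in ctrl in 15, of which 1 held 54. One ent-2KO nucleus held 639 of the 830 UMIs of flp-11. nlp-12, a cholecystokinin-like peptide gene of the DVA neuron, had 53 UMIs in ent-2KO and 0 in ctrl, at least 13.3-fold higher against a floor of 3 UMIs in ctrl, with 47 of the 53 in 1 nucleus. nlp-70 had 80 UMIs in 6 nuclei of ent-2KO and 4 UMIs in 1 nucleus of ctrl. flp-18 was the most widely seen of those named, in 54 nuclei of ent-2KO and 66 of ctrl. Which neurons were captured and how much each transcribed cannot be told apart for the rest. The 26 neuron markers summed to 9083 CPM in ent-2KO and 11790 CPM in ctrl in these nuclei.

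**Figure D5:**
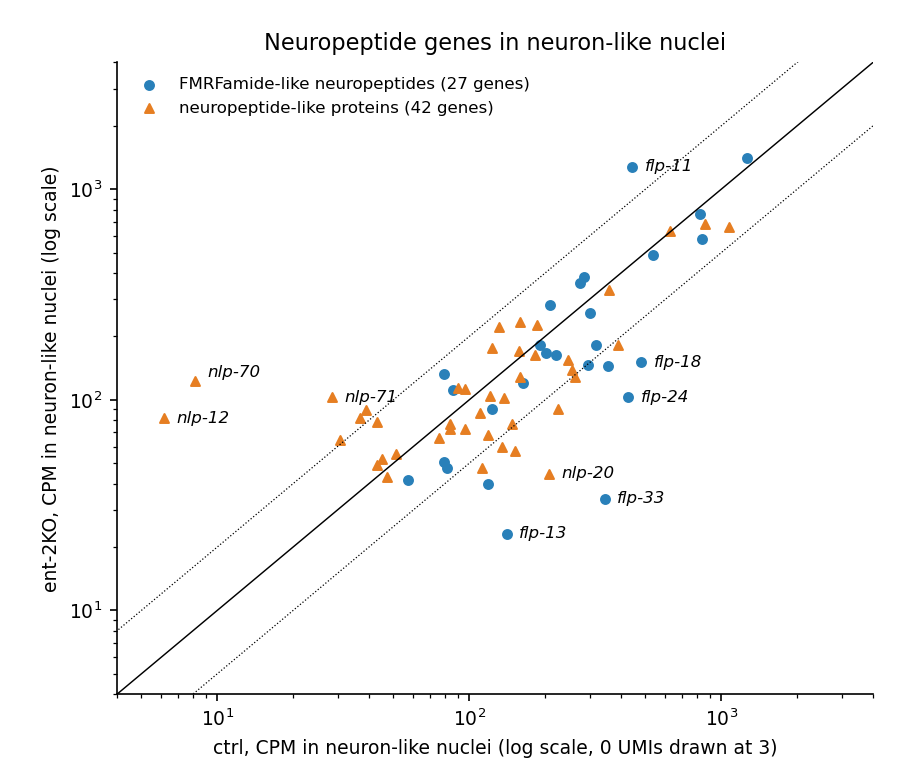
CPM in neuron-like nuclei of ent-2KO (vertical axis, log scale) against ctrl (horizontal axis, log scale) for 27 FMRFamide-like peptide genes (circles) and 42 neuropeptide-like protein genes (triangles). The solid line marks equal levels, dotted lines mark 2-fold, and nlp-12, with 0 UMIs in ctrl, is drawn at the CPM of 3 UMIs. flp-33, flp-13, flp-24 and flp-18 lie below the lower dotted line and flp-11 above the upper one.

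In embryo-like nuclei, 37 of 5501 genes (0.673%) were 2-fold higher in ent-2KO and 28 (0.509%) lower, among 375 and 374 nuclei. F55B11.3 had 112 CPM in ent-2KO and 13.6 CPM in ctrl, and ugt-64 33.7 and 115 CPM. pax-3, a paired-box transcription factor gene, had 24.2 CPM in ent-2KO and 102 CPM in ctrl, from 15 and 25 nuclei. In the ribosomal-rich nuclei, most of which form a cluster led by the aspartyl protease genes asp-6 and asp-14, 53 of 6207 genes (0.854%) were higher and 56 (0.902%) lower. K07A1.6 had 86.5 CPM in ent-2KO and 17.6 CPM in ctrl there, Y75B8A.28 7.94 and 44.8 CPM, and ugt-64 15 and 116 CPM. phat-4, named for the pharyngeal gland, had 69.7 and 7.20 CPM, with 59 of 79 UMIs in 1 nucleus of ent-2KO, and 66 of the 68 UMIs of F35A5.4 in ent-2KO also lay in 1 nucleus.

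Genes of purine and pyrimidine metabolism differed little. Over all nuclei, none of the 9 measured genes of purine synthesis, 7 of purine salvage and breakdown and 14 of pyrimidine metabolism was 2-fold higher or lower, beside 0.818% and 0.493% of all genes, and their median log2 ratios were -0.04, -0.08 and -0.01. The purine synthesis genes ran between -0.28 for ppat-1, the first committed step, and 0.13 for gmps-1, the GMP synthetase. T22D1.3, the IMP dehydrogenase gene of the guanine branch, had 88.9 CPM in ent-2KO and 91.3 CPM in ctrl, and adss-1, the adenylosuccinate synthetase gene of the adenine branch, 104.7 and 109 CPM. Summed levels were 758 and 777 CPM for synthesis and 382 and 407 CPM for salvage. Salvage genes ran between -0.20 for Y10G11A.1 and 0.06 for T19B4.3, with hprt-1 at 49.9 and 50.4 CPM, adk-1 at 92.1 and 101 CPM, adah-1 at 62.6 and 66.3 CPM and pnp-1 at 21.3 and 23.2 CPM. Pyrimidine genes ran between -0.15 for dhp-1 and 0.26 for dut-1, the dUTPase gene.

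The germline gave the same picture. The median log2 ratios were -0.06 over 6 genes of purine synthesis, -0.12 over 4 of salvage and 0.00 over 12 of pyrimidine metabolism, and no gene was past 2-fold. pacs-1, the gene with the most UMIs of the synthesis genes there, had 3378 UMIs in ent-2KO and 2902 in ctrl (log2 -0.09, -0.16 to -0.01), T22D1.3 88.1 and 90.8 CPM, and gmps-1 119.3 and 111 CPM. The 26 genes of DNA replication and ribonucleotide reduction had a median of 0.09, both in all nuclei and in germline-like nuclei. In intestine-like nuclei, pfas-1 had 351 CPM in ent-2KO and 401 CPM in ctrl, atic-1 561 and 503 CPM and ppat-1 137.5 and 156 CPM, and the counting intervals of each of these ratios span 0. adk-1, the adenosine kinase gene, had 68.8 and 125 CPM there, and hprt-1 183 and 118 CPM. endu-2, which the list of pyrimidine genes also holds, had 129 CPM in ent-2KO and 320.5 CPM in ctrl and was the only intestinal member past 2-fold.

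Yolk genes were lower over all nuclei and nearly level within intestine-like nuclei, which leave out clusters rich in ribosomal protein transcripts. Without the ribosomal limit, more nuclei were named intestine-like. In ribosomal-rich nuclei the 7 yolk protein and receptor genes had a median log2 ratio of -0.51, from -0.63 for vit-5 to 0.34 for rme-2. They summed there to 14910 CPM in ent-2KO and 21180 CPM in ctrl. The 6 vit genes, which encode the yolk proteins, had log2 ratios between -0.62 for vit-5 and -0.38 for vit-1 over all nuclei. vit-2 had 980 CPM in ent-2KO, 1374 in ent-1KO, 2642 in ent-1KO;ent-2KD and 1444 in ctrl. In intestine-like nuclei vit-2 had 3974 CPM in ent-2KO and 4418 CPM in ctrl, a ratio of -0.15 (-0.24 to -0.07), and in germline-like nuclei 841 and 1207 CPM, a ratio of -0.52. The 29 intestine markers moved alike, at 5400 CPM in ent-2KO and 7783 CPM in ctrl over all nuclei (log2 -0.53) and 21580 and 23760 CPM in intestine-like nuclei (-0.14). The yolk receptor gene rme-2 had 723 CPM in ent-2KO and 534 CPM in ctrl in germline-like nuclei (0.44, 0.39 to 0.48). Innate immune effector genes had a median of -0.35 over all nuclei, -0.31 in ribosomal-rich nuclei and -0.04 in intestine-like nuclei. Over all nuclei spp-3 was lowest, at 40.2 CPM in ent-2KO and 70.8 CPM in ctrl.

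Germline programmes stayed close to ctrl. The median log2 ratio in germline-like nuclei was 0.07 over 13 genes of stem cell maintenance and meiotic entry, 0.10 over 35 genes of synapsis and recombination, 0.13 over 38 genes of P granules and small RNA pathways and 0.19 over 31 oocyte and eggshell genes, against -0.01 over all genes. Of these genes, perm-4 and perm-2 were past 2-fold, and both are highest in cluster 15. sygl-1, a target of germline stem cell Notch signalling, had a ratio of 0.25 and spo-11, the meiotic double-strand break gene, 0.26.

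Collagen and major sperm protein genes had median ratios above 0 over all nuclei, and hypodermis-like and sperm-like nuclei had larger shares in ent-2KO than in ctrl. Of 58 cuticle collagen genes, 9 were 2-fold higher and none lower, beside 0.818% and 0.493% of all genes, with a median of 0.53. col-145 was highest with 24.9 CPM in ent-2KO, 13 in ent-1KO, 21.6 in ent-1KO;ent-2KD and 9.66 in ctrl. In hypodermis-like nuclei it had 2179 CPM in ent-2KO and 1427 CPM in ctrl (log2 0.61, 0.33 to 0.90). Hypodermis-like nuclei made up 0.708% (0.568 to 0.872%) of ent-2KO and 0.334% (0.238 to 0.457%) of ctrl, 88 and 39 nuclei, and 0.422% of ent-1KO. The 8 measured major sperm protein genes had a median of 0.66, and sperm-like nuclei made up 1.35% (1.16 to 1.57%) of ent-2KO, 1.45% of ent-1KO and 0.720% (0.575 to 0.891%) of ctrl. Over all nuclei, 18 sperm markers summed to 201 CPM in ent-2KO and 136 CPM in ctrl. The 29 hypodermis markers summed to 7188 and 7090 CPM, and all 159 collagen genes to 27830 and 25680 CPM. The part of the tissue shares in these values was not tested. Of gene families with at least 10 measured members, col had the highest median and cox (cytochrome c oxidase assembly and subunits, -0.18 over 12 genes) the lowest. The 14 genes of the mitochondrial genome had a median of -0.34.

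By chromosome, X held the most genes past 2-fold for its size, 16 higher and 10 lower of 611. Chromosome V held 15 and 8 of 1090, and chromosome I 7 and 1 of 1508. Most of the higher X genes belong to the higher group described above. They include the neighbouring Y62H9A and ZK813 genes, so the X count is not a separate result. The median log2 ratio was 0.08 on X over all nuclei and -0.10 in germline-like nuclei, and between -0.01 and 0.01 on each autosome over all nuclei. Of the 27 genes with UMIs within 100 kb of ent-2, the median ratio was 0.08 and 2 were past 2-fold. One was tbh-1, from 15500256 to 15504895, described above. The other was ZK662.2, with 48 UMIs in ent-2KO, 34 in ent-1KO and 143 in ctrl, which is also low in the mutant that does not carry the ent-2 deletion. Next to ent-2, K09A9.12 had 3.98 CPM in ent-2KO and 2.81 CPM in ctrl (log2 0.50, 0.03 to 0.99). On the other side, rab-14 had 14.8 and 12.9 CPM and nipi-3 17.1 and 16.23 CPM, with intervals that span 0. Of the other classes, neuron-like nuclei made up 4.10% of ent-2KO and 4.02% of ctrl and embryo-like 3.02 and 3.21%. The counting intervals did not overlap for muscle-like nuclei, at 3.68% (3.35 to 4.02%) of ent-2KO and 2.86% (2.57 to 3.18%) of ctrl, or for ribosomal-rich nuclei, at 7.57% (7.11 to 8.05%) and 9.65% (9.12 to 10.2%).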

How the data were processed

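Nuclei of whole day 1 adults were captured with 10x 3′ chemistry. The deposited values are UMI counts per gene and barcode, which the authors made with Cell Ranger (6.0 in the labels and methods, 6.1.2 in the matrix header) on the WS282 genome, and all are barcodes the authors kept. The study's methods name DoubletFinder, and whether doublets had been taken out of the deposited matrices was not given in the sources used here; none were removed here, except in an alternative that left out the 1235 ent-2KO and 1089 ctrl barcodes with the highest Scrublet scores (0.8% per 1000 barcodes).

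Counts of the 4 libraries were clustered in Seurat 5.3.0 (R 4.3.3) with CCA integration, 2000 variable genes, 30 dimensions and resolution 0.8. Clusters were named from fixed marker lists, and clusters with a ribosomal protein share over 1.5 times the median cluster were set apart as ribosomal-rich. A name rests on rebuilt clusters and may differ from the study's. UMIs were summed per library and class in Python 3.11.15 (numpy 2.4.6, scipy 1.17.1, pandas 2.3.3), and CPM ratios had exact conditional binomial intervals, CPM exact Poisson intervals and shares exact binomial intervals. A gene's highest cluster was that with the highest CPM over the 4 libraries together. The steps were checked on simulated counts.

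Named genes were the 10 highest and 10 lowest over all nuclei, 5 each way in germline-like nuclei and 3 each way in other classes with at least 200 nuclei in both libraries, 2-fold beyond ctrl and ent-1KO, with the ent genes, neighbours of ent-2, nucleotide genes and the extremes of each list and of the families with the highest and lowest medians. inx-9, lim-7, perm-2, further flp and vit genes and enzyme genes named beside their lists were chosen after their values were seen. The members and lists were chosen with earlier results of these data known. No test was run, since each condition had 1 library.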

Additional observations from a re-analysis of the deposited data

Results flagged for a closer look

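ugt-64 ran in opposite directions in 2 classes of nuclei. Its log2 ratio of ent-2KO over ctrl was -3.36 (-3.54 to -3.18) in germline-like nuclei and 0.60 (0.10 to 1.124) in intestine-like nuclei, and the counting intervals do not overlap. With 1 library per condition the difference between the classes was not tested. The germline value rests on 276 UMIs in ent-2KO and 2292 in ctrl, and the intestinal value on 98 and 51. ugt-64 UMIs in ctrl were also seen in 8.96% of neuron-like nuclei, against 0.786% in ent-2KO.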

How the results depend on the processing

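No paired analysis was possible because each condition had 1 library. Of 238 recomputed counts, shares and list medians, 60 moved by more than the spread allowed, and none of 300 recomputed ratios of named genes changed direction or fell under 2-fold. A minimum of 10 UMIs with no CPM minimum raised the genes past 2-fold, higher and lower, to 960 and 516 over all nuclei (19491 tested, against 58 and 35 of 7094), 467 and 552 in germline, 600 and 466 in intestine, 829 and 377 in muscle, 538 and 536 in neuron, 278 and 376 in embryo and 453 and 425 in ribosomal-rich nuclei. With ent-1KO as the reference 54 genes were lower. With 5 UMIs added, 68 genes were higher in intestine, 91 in muscle and 45 in neuron. Median-ratio scaling gave 113 higher and 129 lower in muscle. Without integration there were 140 higher in muscle, 51 lower in embryo and 15 higher and 21 lower in the ribosomal-rich class. Resolution 1.6 gave 154 higher in muscle and 43 lower in embryo, and resolution 0.4 gave 51 lower in embryo. Without the ribosomal limit 185 were higher in intestine. With nuclei of at least 1000 UMIs, 51 were lower in neuron and 37 in the ribosomal-rich class, and the list medians were -0.49 for yolk and -0.037 for ribosomal proteins. Shares, ent-2KO then ctrl, became at resolution 0.4 50.3 and 50.8% germline, 9.26 and 9.97% embryo, 9.34 and 13% ribosomal-rich, and 4.54% neuron in ent-2KO. At resolution 1.6 they were 4.77 and 4.42% neuron and 3.88 and 4.21% embryo. Without integration they were 54.7% germline in ctrl, 9.52 and 10.7% embryo and 0.161 and 0.652% ribosomal-rich. Without the ribosomal limit they were 62.3% germline in ent-2KO and 8.26 and 10.5% intestine. With at least 1000 UMIs they were 63.3 and 65.5% germline, 2.04% intestine in ent-2KO, 4.49 and 3.84% muscle, 2.18 and 1.76% neuron and 4.41 and 5.41% ribosomal-rich. The cause of these shifts was not tested. Depth limits the small classes, where 50 UMIs over both libraries admit values set by 1 nucleus.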

Other observations

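For a few genes 2-fold or more beyond ctrl in ent-2KO, ctrl stood apart from the other 3 libraries. They were chosen after their values were seen. T06E4.14, T06E4.8 and T06E4.12 lie together on chromosome V, from 9622105 to 9629214. T06E4.14 had 1.02 CPM in ent-2KO, 0.397 in ent-1KO, 1.59 in ent-1KO;ent-2KD and 26.7 in ctrl. T06E4.8 had 1.1, 0.336, 1.71 and 21.5 CPM in the same order, and T06E4.12 2.16, 0.459, 2.15 and 27.9 CPM. Y47D3B.6, on chromosome III, had 1.59, 1.38, 2.02 and 22.5 CPM. These 4 genes gave low log2 ratios of ent-2KO over ctrl over all nuclei, -4.68, -4.27, -3.68 and -3.81 in the order above, and every mutant library was as low.

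The pseudogene Y102A5C.6 had 41.6 CPM in ent-2KO, 40.4 in ent-1KO, 26.7 in ent-1KO;ent-2KD and 190 in ctrl. cls-3, a member of the CLASP family of microtubule-binding proteins, had 34.8, 32.9, 14.8 and 97.2 CPM in the same order. catp-3, a cation-transporting ATPase gene, was higher in all mutants, with 58.9, 52.1 and 209 CPM, against 21.9 CPM in ctrl.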
